A study of Arabidopsis thaliana with 4 samples.

Results

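The cold-regulated COR and KIN genes are 10 genes of Arabidopsis thaliana, chosen by gene identifier out of the 32548 genes in the deposited table. They are COR15A (AT2G42540), COR15B (AT2G42530), COR413IM1 (AT1G29395), COR413IM2 (AT1G29390), COR413-PM1 (AT2G15970), KIN1 (AT5G15960), KIN2 (AT5G15970), RD29A (AT5G52310), COR47 (AT1G20440) and ERD10 (AT1G20450). All 10 were among the 23256 genes with a mean normalised read count of at least 1, the genes that were tested. They were chosen by name, with earlier results of these data known.

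RNA sequencing was done on total RNA of whole seedlings aged 10 days, grown on Murashige and Skoog plates at 22 °C under 16 h of light and 8 h of darkness. One group was the wild type Col-0 and the other the mutant bdt1 in the same ecotype, with 2 libraries each. No cold treatment is named for either group, so the levels given here are those of plants at an ordinary growth temperature. The mutant's source label has btl1 where the title and genotype label have bdt1, and neither the allele nor the kind of mutation is given. The submitters call the libraries biological replicates without saying how the plants were grown apart, so p-values measure the spread between these libraries. Seedlings were taken whole, so fewer cells of a type and less RNA per cell cannot be told apart.

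In cold acclimation, a plant held at a low but harmless temperature becomes able to survive freezing. CBF (DREB1) transcription factors are induced within this response and bind the C-repeat or dehydration-responsive element, whose core is CCGAC, upstream of COR ("cold-regulated") and KIN ("cold-induced") genes. The hormone abscisic acid and water loss act on many of the same genes through abscisic acid-responsive elements, whose core is ACGTG. The encoded proteins are mostly hydrophilic and are known for protecting membranes and proteins when cells lose water.

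Of the 10 genes, 8 stand as 4 tandem pairs of neighbours on the same strand. The upstream sequences are shown because each pair is compared within libraries further on. Both cores were searched on both strands in the 500 bases before each start codon (TAIR10.1 genome and RefSeq annotation). CCGAC was found for 9 of the 10 genes, every one except COR413IM2, against 23.4% of 27443 coding genes. RD29A had 4 copies, ERD10 3 overlapping copies, and COR15A 2. At least 2 copies were found in 4.49% of coding genes. ACGTG was found for 9 of the 10, every one except ERD10, against 34.6%. The palindrome CACGTG counts on each strand. These matches are descriptions of the sequence and not evidence of binding. The windows below are read along the gene's own strand, 29 bases each, with 1 CCGAC (or its reverse complement) in capitals. For ERD10 that is the first of its 3 overlapping copies:
COR15A: acaatttcatggCCGACctgctttttttt
COR15B: acaacttgatggCCGACctcttttttctt
KIN1: gataaatagctaCCGACataaggcaaaac
KIN2: aataaaaagctaCCGACataaggcaaaaa
COR413IM1: gaaattagttatGTCGGtaccaatgaaat
COR47: gatattcatctaCCGACttcaagaaataa
ERD10: gatattcatccaCCGACcgaccgacgtaa
The COR15A window lies at chr2:17712216-17712244 on the minus strand, 302 bases before the start codon, and that of COR15B at chr2:17710122-17710150 on the minus strand, 265 bases before it. They share 24 of 29 bases. The other COR15A window, 479 bases before the start codon and not printed, shares 20 of 29 with that of COR15B. The KIN1 window lies at chr5:5209802-5209830 on the plus strand (178 bases before the start codon) and the KIN2 window at chr5:5211769-5211797 (185 bases before it), and they share 26 of 29. The COR413IM1 window is at chr1:10289909-10289937, the COR47 window at chr1:7085916-7085944 and the ERD10 window at chr1:7089369-7089397, all on the minus strand, and the COR47 and ERD10 windows share 21 of 29. With the windows around the other ERD10 copies, not printed, the COR47 window shares 15 of 29 each. Of the windows printed, that of COR413IM1 is upstream of the annotated gene. The other 6 printed windows lie in annotated exons, in the part before the coding sequence.

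Reads counted for genes came to 22914893 to 27435729 per library, as recovered from the deposited values. The transcript of AT4G11560, which background knowledge ties to the name BDT1, was at 1135 and 1117 in Col-0 and 313 and 324 in bdt1, lower in both mutant libraries. Over all tested genes, 280 were higher in bdt1, or 1.2%, and 199 were lower, or 0.856% (limma with Benjamini-Hochberg adjustment, adjusted p under 0.05). The 2 bdt1 libraries lay wholly above or wholly below the 2 Col-0 libraries in 48.9% of tested genes. Green-shoot markers had 1 of 4 lower in bdt1 (LHCB1.3, -0.46 on the log2 scale, limma adjusted p = 0.03), and their summed level was 697180.3 to 700451 in Col-0 and 600092 to 609076 in bdt1. Root markers had 1 of 4 higher (TIP2;3, a vacuolar water channel family member, 1.24, limma adjusted p = 0.003), with a sum of 42829 to 46181 in Col-0 and 44463 to 45249.7 in bdt1. Most of the root sum was PYK10, with 45706 and 42397 in Col-0 and 43765 and 44618 in bdt1. Seed markers had 1 of 3 higher (CRA1, a storage protein, 1.59, limma adjusted p = 0.037), with a sum of 44.3 to 94.6 in Col-0 and 175 to 216 in bdt1. Most of the seed sum was CRA1 itself, with 85.2 and 42.5 in Col-0 and 166 and 204 in bdt1. The seed gene OLEO1 had 6 and 2 reads in Col-0 and 8 and 10 in bdt1 (limma adjusted p = 0.41). The CRA1 call was lost without Col-0 replicate 2, and edgeR did not call LHCB1.3 without bdt1 replicate 1 or 2 (adjusted p = 0.19 and 0.11). The LHCB1.3 call was also lost with quantile scaling of all 4 libraries (-0.34, limma adjusted p = 0.26), and the CRA1 call with a pseudocount of 0.1 (limma adjusted p = 0.061). The seed gene SESA3 had 0 to 3 reads and the pollen gene VGD1 0 or 1 read per library, and the flower gene AP3 5 to 20 reads. The part of these markers in the results on COR and KIN genes was not tested.

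In bdt1 seedlings 1 of the 10 genes rose, KIN1, and 2 fell, COR15A and COR413IM1, beside 1.2% and 0.856% of all tested genes. The other 7 did not pass the test. Their log2 fold changes ran from -0.18 to 0.59, and the median over all 10 was -0.03, against 0 over all tested genes. Fold changes were positive in 4 of 10, against 50.7% of tested genes. The groups did not overlap in 8 of the 10, read beside the 48.9% of all tested genes. Together the 10 genes made up 0.0676% and 0.0727% of all normalised reads in Col-0 and 0.0691% and 0.0697% in bdt1, ranges in which the genotypes overlapped.

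**Figure D1:**
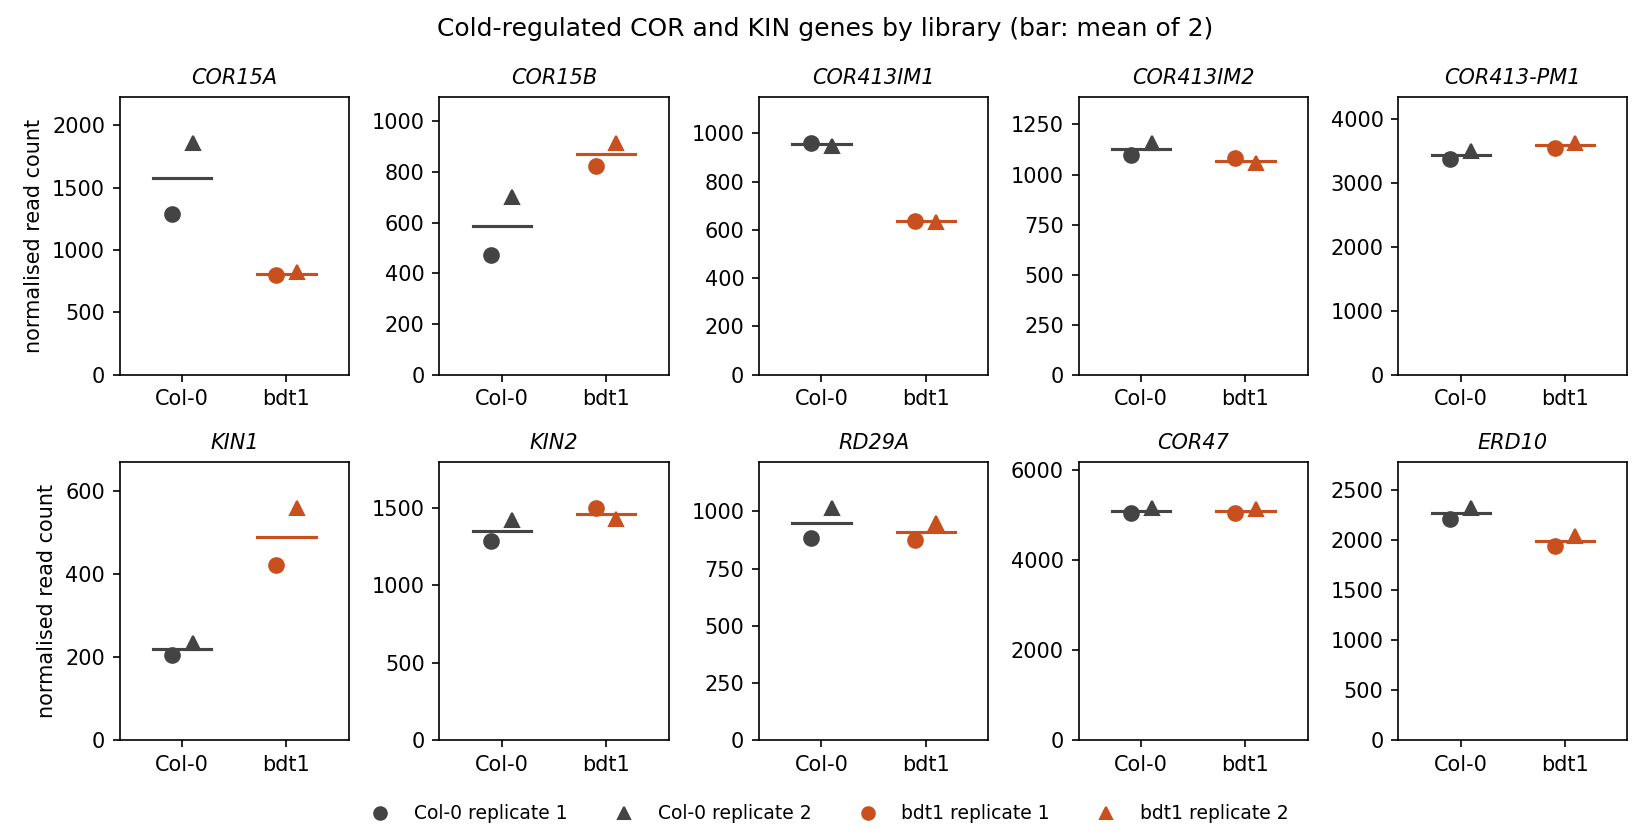
Normalised read count of each of the 10 genes in every library, on a linear axis from 0 with its own scale per gene; points are libraries and bars are means of 2. KIN1 is higher in both bdt1 libraries (422 and 559 against 205 and 234), COR15A and COR413IM1 are lower, and RD29A and COR47 overlap between genotypes.

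COR15A encodes a small disordered protein of the chloroplast stroma that protects chloroplast membranes during freezing. Its normalised read count was 1291 in Col-0 replicate 1, 1860.2 in Col-0 replicate 2, 797 in bdt1 replicate 1 and 826 in bdt1 replicate 2. Both bdt1 libraries were below both Col-0 libraries, and the Col-0 libraries stood further apart from each other than the bdt1 libraries did. COR15A fell by 0.93 in log2 units, with a 95% interval of -1.26 to -0.61 (SE 0.14, limma adjusted p = 0.017), so that Col-0 was 1.91-fold higher.

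COR15B, its neighbour and closest relative here, encodes a second stromal protein of the same kind. Its count was 470.2 and 702 in Col-0 and 823 and 914 in bdt1, so that it lay above Col-0 in both mutant libraries. The log2 fold change was 0.59 (SE 0.16, 95% interval 0.22 to 0.96, limma adjusted p = 0.12) and did not pass the test over all genes. DESeq2 on the recovered counts gave an adjusted p of 0.037 for COR15B and edgeR 0.1. Without Col-0 replicate 2, its higher Col-0 library, the log2 fold change was 0.88, and without Col-0 replicate 1 it was 0.30. Limma called COR15B in the first of these fits only. edgeR called it in both, and also without bdt1 replicate 1 (0.63). Each such fit leaves 1 library in a genotype, so these calls are no independent support.

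Both COR15 genes were higher in Col-0 replicate 2 than in replicate 1, 1.44-fold for COR15A and 1.49-fold for COR15B. Among 15939 genes with a mean of at least 100 in Col-0, 2.59% were higher by 1.4-fold or more in that library. Between the bdt1 libraries the corresponding ratios were 1.04 and 1.11.

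KIN1 and KIN2 encode small hydrophilic, alanine-rich proteins that accumulate in cold and with abscisic acid. KIN1 had 205 and 234 normalised reads in Col-0 and 422 and 559 in bdt1. Both mutant libraries were above both wild-type libraries, and the mutant libraries differed from each other by 1.33-fold. KIN1 rose 2.21-fold, a log2 fold change of 1.14 with a 95% interval of 0.81 to 1.48 (SE 0.15, limma adjusted p = 0.0076). KIN2, which had more reads than KIN1 in every library, had 1288 and 1422 in Col-0 and 1501 and 1427 in bdt1. The nearest libraries of the 2 genotypes were 1422 and 1427, and the log2 fold change of KIN2 was 0.11 (95% interval -0.05 to 0.27, limma adjusted p = 0.47).

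The COR413 genes encode proteins with several membrane spans, of the chloroplast inner envelope for COR413IM1 and COR413IM2 and of the plasma membrane for COR413-PM1. COR413IM1 had 961 and 949 normalised reads in Col-0 and 636 and 634 in bdt1. Replicates of this gene lay close together in each genotype, and the genotypes did not overlap. COR413IM1 fell by 0.59 in log2 units, with a 95% interval of -0.75 to -0.43 (SE 0.07, limma adjusted p = 0.0054), so that Col-0 was 1.5-fold higher. COR413IM2 had 1099.6 and 1158 in Col-0 and 1082 and 1055 in bdt1, a log2 fold change of -0.08 (95% interval -0.23 to 0.07, limma adjusted p = 0.6). COR413-PM1 had 3374 and 3491 in Col-0 and 3546 and 3619.9 in bdt1, a log2 fold change of 0.06 (95% interval -0.06 to 0.18, limma adjusted p = 0.61). The intervals of the last 2 genes hold 0 and leave out a change as large as that of COR413IM1.

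RD29A, known from the study of drought- and cold-responsive promoters and also called LTI78, encodes a hydrophilic stress protein. It had 884 and 1014 in Col-0 and 873 and 949 in bdt1, with overlap between genotypes and a log2 fold change of -0.06 (95% interval -0.25 to 0.14, limma adjusted p = 0.79). COR47 and ERD10 encode acidic dehydrins, disordered proteins that shield other proteins and membranes from drying. COR47 had 5039 and 5157 in Col-0 and 5046.5 and 5127 in bdt1, so its mutant values fell between its wild-type values, and the 95% interval was -0.12 to 0.11 (limma adjusted p = 0.99). ERD10 had 2208 and 2314 in Col-0 and 1939.9 and 2038 in bdt1. Its groups did not overlap, and its log2 fold change of -0.18 (95% interval -0.32 to -0.05, limma adjusted p = 0.17) did not pass the test over all genes.

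**Figure D2:**
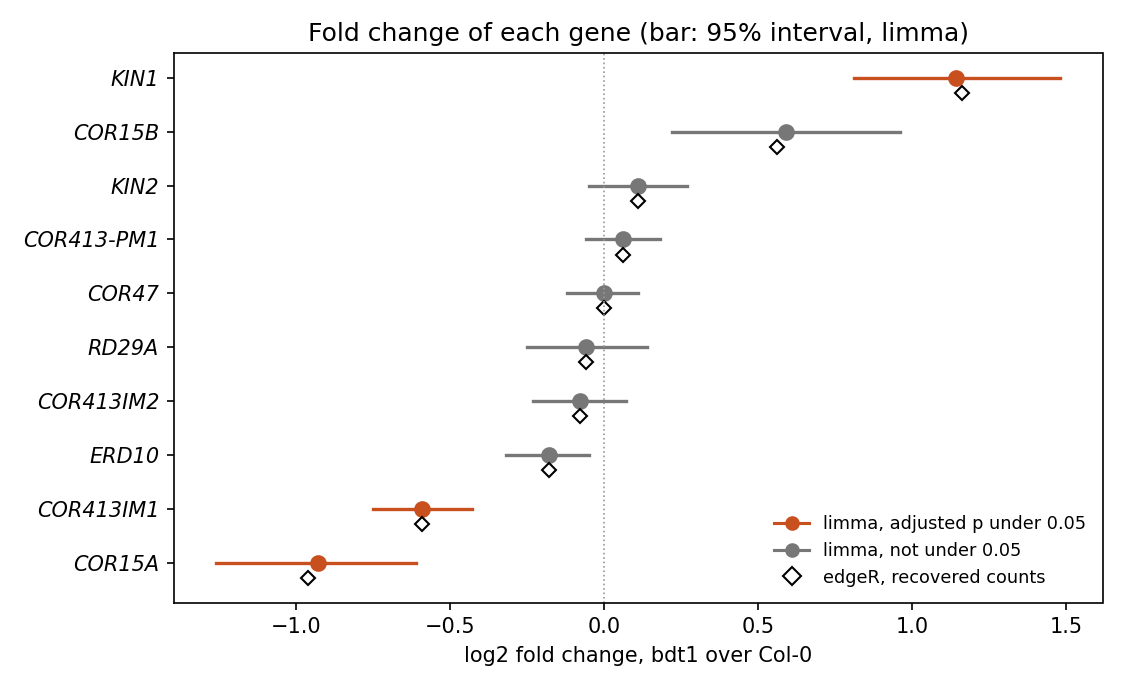
Log2 fold change of bdt1 over Col-0 for each of the 10 genes from limma, with bars for its 95% interval, and from edgeR on recovered counts as open diamonds; orange marks a limma adjusted p under 0.05. KIN1 (1.14), COR413IM1 (-0.59) and COR15A (-0.93) are marked, and COR15B (0.59) has an interval above 0 without passing the test over all genes.

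The 3 calls were also made by edgeR on the recovered counts (adjusted p = 0.0094 for COR15A, 0.0037 for COR413IM1 and 0.0036 for KIN1). Limma called 0 of all genes without bdt1 replicate 1 or without bdt1 replicate 2, so each of the 3 calls was lost there. At an unadjusted p under 0.05 there were then 916 higher and 657 lower genes, and 925 and 686. edgeR made the 3 calls with each of the 4 libraries left out in turn. Every such fit has a genotype with 1 library, which is assumed to vary like the other genotype, so these calls are no independent support. Without a Col-0 library edgeR called more genes than with all 4 (870 higher and 1245 lower, or 1225 and 1273, against 338 and 260). Without a bdt1 library it called 289 and 225, or 300 and 334. Without its mean-variance trend limma made none of the 3 calls (adjusted p = 0.31, 0.14 and 0.23 in that order).

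A ratio of neighbours within a library does not depend on how libraries were scaled. The COR15 genes lie 7 bases apart as annotated, with 83.3% identity over their aligned coding sequence and 1.584 kilobases of exon each. COR15A had 2.75 and 2.65 normalised reads for each COR15B read in Col-0, and 0.969 and 0.904 in bdt1. The ratio was thus close between the 2 Col-0 libraries, although both genes were higher in one of them, and in bdt1 COR15B had the more reads. The log2 ratio went from 1.43 ± 0.04 (SD, n = 2) to -0.10 ± 0.07 (SD, n = 2), a 2.88-fold change. The exact permutation test over libraries gave p = 0.333, two-sided, which is the smallest p that 2 against 2 allow. The summed count of the pair was 1761 and 2562 in Col-0 and 1620.0 and 1740.6 in bdt1, so both bdt1 libraries were lower, by a narrow margin at the nearest libraries.

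KIN1 and KIN2 lie 892 bases apart and share 95% of their coding bases. KIN1 had 0.159 and 0.165 reads for each KIN2 read in Col-0 and 0.281 and 0.392 in bdt1. KIN2 thus had 6.27 and 6.07 times the reads of KIN1 in the wild type and 3.56 and 2.55 times in the mutant. COR413IM1 and COR413IM2 lie 25 bases apart with 87.2% coding identity. Their ratio was 0.874 and 0.819 in Col-0 and 0.588 and 0.601 in bdt1, so COR413IM2 had more reads throughout. Per kilobase of coding sequence, which is of nearly equal length in both, COR413IM1 was also below COR413IM2 in Col-0 (1408 against 1658 reads) and in bdt1 (937 against 1569 reads). Per exon kilobase COR413IM1 was above in Col-0 (935 against 849 reads) and below in bdt1 (622 against 804 reads), since the annotated exons are 1.021 and 1.329 kilobases long. COR47 and ERD10, 1029 bases apart with 82.3% coding identity, had a ratio of 2.28 and 2.23 in Col-0 and 2.6 and 2.52 in bdt1. None of the 4 ratios overlapped between genotypes, a separation also seen in 50% of 5205 neighbouring pairs of coding genes on 1 strand with a mean of at least 100 each. The exact permutation p was again 0.333 for each.

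**Figure D3:**
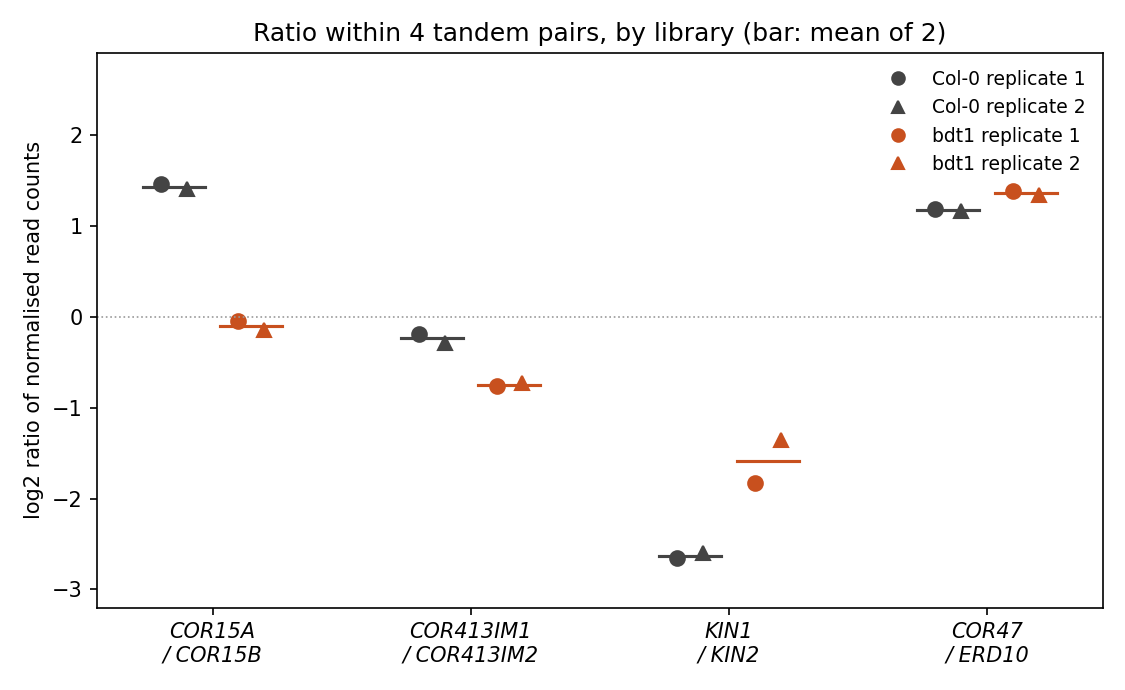
Log2 ratio of normalised read counts within each of 4 tandem pairs, by library; bars are means of 2 and the dotted line marks equal counts. The COR15A to COR15B ratio goes from a mean of 1.43 in Col-0 to -0.10 in bdt1, and the change of the COR47 to ERD10 ratio is 0.18.

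After the values were seen, limma was also fitted to the log2 ratios of all 5205 neighbouring pairs, with Benjamini-Hochberg adjustment over them. Unlike the main test, this fit used no mean-variance trend. It called 60 pairs, or 1.15%. The COR15 pair was among them, with a difference of -1.53 (SE 0.11, limma adjusted p = 0.0042). With 1 library left out the adjusted p ran from 0.012 to 0.018, with the lone library assumed to vary like the other genotype. The KIN pair (1.03, SE 0.17, limma adjusted p = 0.062), the COR413IM pair (-0.51, SE 0.11, limma adjusted p = 0.097) and the COR47 and ERD10 pair (0.18, SE 0.11, limma adjusted p = 0.45) did not pass. The KIN pair passed without bdt1 replicate 1 (limma adjusted p = 0.032).

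No source used here says how reads from near copies and overlapping genes were assigned. All 50-base windows within annotated exons were searched for exact copies elsewhere in the genome, leaving out windows across exon junctions. None was found for either COR15 gene, COR413-PM1, RD29A, COR47 or ERD10. The share of windows with an exact copy was 0.147% for KIN1, 0.166% for KIN2, 1.38% for COR413IM1 and 0.923% for COR413IM2. COR15B overlaps AT2G42520 on the opposite strand over 468 bases, where reads cannot be told apart if strand was not used in the counting. AT2G42520 had 1321 and 1343 normalised reads in Col-0 and 1285 and 1325 in bdt1, a log2 fold change of -0.03 (limma adjusted p = 0.85). COR413IM2 overlaps AT1G29380 over 98 bases (-0.31, limma adjusted p = 0.45).

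To compare levels between genes, counts were divided by the length of annotated exons, and the order depends on that choice of length. In Col-0 COR413-PM1 was highest with 3161 ± 76.6 normalised reads per exon kilobase (SD, n = 2), above 96.9% of tested genes. COR47 (2197 ± 35.9), KIN2 (1806 ± 126) and ERD10 (1392 ± 46.4) followed, with no overlap between neighbours in that order. COR15A (995 ± 254), COR413IM1 (935 ± 8.51) and COR413IM2 (849 ± 31.1) came next on this scale, and COR15A overlapped the other two. COR15B (370.1 ± 104) and RD29A (356.5 ± 34.6) overlapped each other, and KIN1 was lowest with 265 ± 24.7, still above 59.5% of tested genes. The first 4 places were held by the same genes in bdt1, where COR413-PM1 had 3299 reads per exon kilobase. Below them in bdt1 COR413IM2 (804 ± 14) stood alone, while COR413IM1 (622 ± 1.22), KIN1 (592 ± 117), COR15B (548 ± 40.9) and COR15A (512.5 ± 12.9) each overlapped the next in that order, and RD29A (342 ± 20) was lowest. Per kilobase of coding sequence the order was another one. In Col-0 KIN2 (6740.2 normalised reads per coding kilobase) and COR47 (6388) then stood above COR413-PM1 (5779), COR15A (4103) above ERD10 (2888), and KIN1 (1093) above RD29A (445).

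The genes whose log2 values over the 4 libraries lay closest to those of each gene that passed were picked from 16034 tested genes with a mean of at least 100, by root mean square distance after centring. For COR15A they were AT1G04770 (distance 0.031), the B-box gene BBX17 (AT1G49130, 0.07) and AT2G17880 (0.072). For COR413IM1 they were AT3G05600 (0.018), AT5G22090 (0.02) and APS3 (AT4G14680, 0.03), which encodes an ATP sulfurylase. For KIN1 they were AT4G18490 (0.037), AT1G29720 (0.065) and AT4G03500 (0.071). The measure rests on 4 libraries only.

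A set of 6 lists of related genes gave the surroundings of the cold response, with 76 of 78 genes tested. Of these, 2 were higher and 3 lower in bdt1, beside 1.2% and 0.856% of all tested genes, and 34 of 76 fold changes were positive. Their median log2 fold change was -0.06, against 0 over all tested genes.

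Of 5 tested CBF and DREB transcription factors 1 rose and none fell. DREB2A, which binds the same CCGAC core in heat and drought responses, had 84.6 and 85.3 normalised reads in Col-0 and 197 and 177 in bdt1. Both mutant libraries were well above the wild type, and DREB2A rose 2.18-fold (log2 fold change 1.13, SE 0.16, limma adjusted p = 0.011). The cold-induced CBF genes were close to the detection limit. CBF1 had 2 and 3 recovered reads in Col-0 and 1 and 6 in bdt1, and CBF3 had 5 and 1 against 5 and 6. CBF2 had 1 and 17 reads in Col-0 and 0 and 15 in bdt1, so its level differed more between replicates than between genotypes. At this depth no difference in the 3 CBF genes was detectable (limma adjusted p = 0.95, 0.87 and 0.57 for CBF1, CBF2 and CBF3).

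Of 18 regulators of the CBF genes 2 fell and none rose. ICE2, a helix-loop-helix factor that acts upstream of CBF genes, had 1805 and 1747 in Col-0 and 1445 and 1399 in bdt1 and fell by 0.32 on the log2 scale (limma adjusted p = 0.035). PRR5, a clock repressor known to limit CBF expression, had 453 and 541 in Col-0 and 314 and 341 in bdt1 and fell by 0.60 (limma adjusted p = 0.037). Neither gene overlapped between genotypes. The PRR5 call was lost without Col-0 replicate 2 (-0.47, limma adjusted p = 0.099). edgeR did not call ICE2 without bdt1 replicate 1 or replicate 2 (adjusted p = 0.11 and 0.18), and its call was lost in 8 of 20 alternatives in all, quantile scaling among them (limma adjusted p = 0.053). PRR5 was lost in 5 of 20.

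Among 18 tested other cold-induced genes 1 fell and none rose. This was COR28, a cold- and light-regulated gene linked to the clock, with 362 and 396 in Col-0 and 252 and 251 in bdt1 (-0.59, limma adjusted p = 0.032), whose call was lost without Col-0 replicate 2 (-0.52, limma adjusted p = 0.088). COR413-PM2, the relative of COR413-PM1, had 733 and 745 in Col-0 and 749 and 747 in bdt1 (0.02, limma adjusted p = 0.93).

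Of 9 other dehydrins and late-embryogenesis-abundant (LEA) genes 1 rose and none fell. LEA7 had 26.4 and 23.8 normalised reads in Col-0 and 61.2 and 69.5 in bdt1 (1.34, limma adjusted p = 0.041). Its call was lost without Col-0 replicate 2 (1.27, limma adjusted p = 0.09) and with DESeq2 (adjusted p = 0.096), and in all in 9 of 20 alternatives. RD29B, named with RD29A and known for its response to abscisic acid, had 57.4 and 84.8 in Col-0 and 142 and 135 in bdt1. Its log2 fold change was 0.98 (SE 0.22, limma adjusted p = 0.066), and edgeR gave an adjusted p of 0.049. Without Col-0 replicate 2 limma called RD29B as well (1.26, adjusted p = 0.038). The dehydrins RAB18 (239 and 345 against 417 and 336) and LTI30 (307 and 291 against 333 and 299.5) overlapped between genotypes (limma adjusted p = 0.34 and 0.77).

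None of 7 genes of abscisic acid synthesis and breakdown and none of 19 of abscisic acid signalling and output passed the test with limma or with edgeR. At an unadjusted limma p under 0.05 there were 2 higher and 0 lower genes in the first list and 1 and 3 in the second. Over all 23256 tested genes there were 2003 higher and 1804 lower. CBF and DREB factors had 1 and 0, and regulators of the CBF genes 1 and 5. Other cold-induced genes had 0 and 5, and other dehydrins and LEA genes 2 and 0. The abscisic acid lists had median log2 fold changes of -0.06 and 0.

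**Figure D4:**
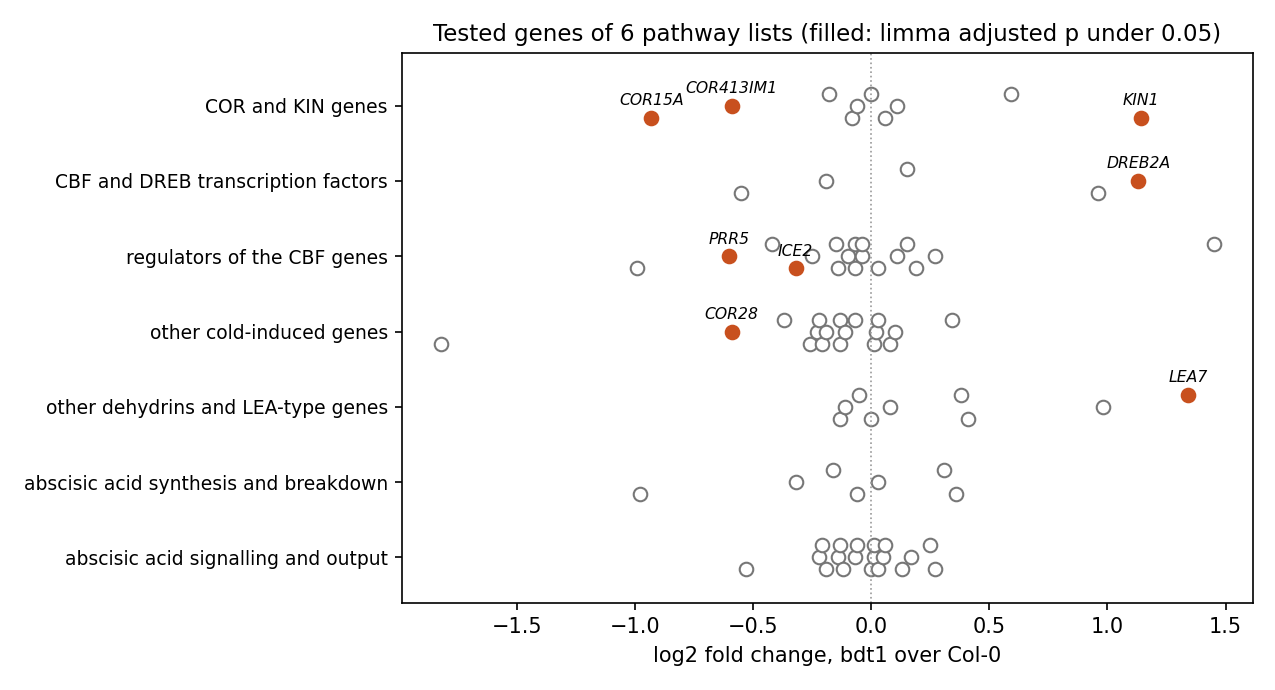
Log2 fold change of bdt1 over Col-0 for the 10 COR and KIN genes and the tested genes of 6 related lists; each point is 1 gene, vertical offsets only separate points, and filled points passed limma's test over all genes. The named points are 3 of 10 COR and KIN genes and 5 of the 76 list genes, namely DREB2A, LEA7, ICE2, PRR5 and COR28.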

How the data were processed

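The authors deposited 1 signal value per gene and library, a normalised read count. Per the submitters' processing notes, HISAT2 2.2.0, edgeR and the TAIR10 genome were used. Which counter, annotation version and strand setting were used is not given in the sources used here. These signal values have the form of edgeR pseudo-counts, in which the authors' counts are moved to a common library size. Inverting that form with a fitted dispersion of 0.00544 gave whole reads for 100% of values in every library, within 0.001 reads. These recovered counts totalled 23529796 and 27435729 reads for Col-0 and 22914893 and 25120921 for bdt1.

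The 10 genes and all lists were chosen with earlier results of these data known. limma 3.58.1 (R 4.3.3) was fitted without a block, with a mean-variance trend, to log2(deposited value + 1) of all 23256 genes with a mean of at least 1, with Benjamini-Hochberg adjustment and a threshold of 0.05. Fold changes on this scale are understated for low genes. Neighbour ratios were compared with an exact permutation test. Alternatives were quantile and TMM scaling, other pseudocounts and filters, no trend, DESeq2 1.42.0 and edgeR 4.0.16 quasi-likelihood tests on the recovered counts, each library left out, a 1.5-fold minimum and a replicate block. edgeR called 338 genes higher and 260 lower. Leave-one-out with edgeR and limma over neighbouring pairs, the latter without a trend, were added after seeing the data. The fits were tested on simulated data. The genes named are the 10, list genes that passed, CBF1, CBF2, CBF3, RAB18, RD29B, COR413-PM2 and LTI30, AT4G11560 and the 3 nearest patterns; organ markers and overlapping genes are named beside them. Positions come from the TAIR10.1 RefSeq annotation, read with Python 3.11.15 and Biopython 1.88.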

Additional observations from a re-analysis of the deposited data

How the results depend on the processing

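The fold changes of COR15A (-1.20 to -0.67), COR413IM1 (-0.60 to -0.55) and KIN1 (0.94 to 1.35) kept their direction in all 20 alternatives. Their groups did not overlap, so leaving out a library with limma could not turn it. The 1.5-fold minimum reused the main fit. Their calls were lost with limma without bdt1 replicate 1 or 2, and without its trend. Without limma's trend no COR or KIN gene was called (0 higher, 0 lower), and 42 genes in all were higher and 6 lower. The calls of DREB2A, ICE2, PRR5, COR28, LEA7, TIP2;3, CRA1 and LHCB1.3 were lost there too (adjusted p from 0.087 to 0.33). Quantile scaling lost LHCB1.3 (0.26), LEA7 (0.06) and ICE2 (0.053), a pseudocount of 0.1 lost LEA7 (0.057), PRR5 (0.056), CRA1 (0.061) and ICE2 (0.05), and no filter lost LEA7 (0.055), all as limma adjusted p. DESeq2 called 2 COR and KIN genes higher, adding COR15B. A replicate block also called 2 higher (COR15B, adjusted p = 9.9e-05), with 901 higher and 917 lower genes in all, and RD29B was called with it. Replicate numbers share no stated batch, and the deviations of same-numbered libraries correlated at -0.0116 over all tested genes and 0.143 over genes with a mean of at least 100. With a pseudocount of 0.1, 123 genes were lower, and with a 1.5-fold minimum 104. Leaving out 1 library with limma gave 0 to 2 COR and KIN genes higher, 0 to 2 lower, and 0 to 540 higher and 0 to 776 lower genes in all. edgeR added ERD10 without Col-0 replicate 1 and RAB18 without Col-0 replicate 2, and gave 870 higher and 1245 lower genes without Col-0 replicate 1, 1225 and 1273 without Col-0 replicate 2, and 334 lower without bdt1 replicate 2. The lone library is assumed to vary like the other genotype in all these fits. Limma over all neighbouring pairs put the COR15 ratio (-1.53) past the threshold, which the exact test cannot reach. Quantile scaling turned COR47 to 0.02 and CBF1 to -0.06. Leaving out a library turned the sign of RD29A (-0.16 to 0.04), COR47 (-0.02 to 0.01), CBF1 (-0.70 to 1.01 with limma, -1.13 with edgeR), CBF2 (-2.48 to 1.37 with limma, 0.75 and 2.69 with edgeR) and LTI30 (0.00 to 0.16), none of them called. The cause was not tested. The 2 libraries per genotype limit every p-value, and depth limits the CBF genes.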
